A study of Mus musculus with 12 samples.

Results

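Molecular chaperones were described by family in mouse germ cells: the CCT ring, the heat shock proteins and the DnaJ proteins. Members were all table rows named Tcp1, Cct with a digit from 2 to 8, Hsp with a following letter or digit of the heat shock protein families, or Dnaja, Dnajb or Dnajc. Hspa5 and names of pseudogenes were left out. The rule used names alone and found 83 of the 26218 gene rows. They fall into 9 families: 10 CCT genes, 3 HSP90 genes, 13 genes of the HSP70 and HSP110 group, the mitochondrial pair HSP60 and HSP10 (2 genes), 8 small heat shock protein genes, 2 other genes whose names start with Hspb, and 4 DNAJA, 13 DNAJB and 28 DNAJC genes.

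RNA was measured by sequencing of transcript 3′ ends in 12 libraries, 2 in each of 6 groups. The 3 culture groups were primordial germ cell-like cells (PGCLCs), made from C57BL/6 embryonic stem cells that carried the BVSC reporters Blimp1-mVenus and Stella-ECFP. The stem cells were first turned into epiblast-like cells, and PGCLCs were then induced for 4 days, sorted by Blimp1-mVenus fluorescence and expanded on m220 feeder cells, mainly the clonal subline m220-5, for 3, 5 or 7 days (d4c3, d4c5 and d4c7) before a second such sort; the labels call these libraries BVSC+. The 3 embryonic groups were primordial germ cells (PGCs) at embryonic day 9.5 (E9.5) and male and female germ cells at E12.5, from ICR and C57BL/6 mixed 1:1 and sorted by Stella-EGFP. Libraries were amplified from 10 ng of RNA for PGCLCs and 1 ng for embryonic cells. Culture and embryo thus also differ in strain, reporter, sort and RNA input, and these cannot be told apart from culture itself. The labels do not say whether the 2 libraries of a group came from separate cultures or litters, so p-values measure the spread between these libraries, which may be technical.

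Chaperones bind proteins that are not yet folded and release them, mostly in cycles driven by ATP. HSP70 proteins are loaded with clients by J-domain (DnaJ) proteins and unloaded by nucleotide exchange factors such as the HSP110 proteins, HSP90 matures kinases and receptors, and the CCT ring encloses actin and tubulin while they fold. Heat shock factors bind repeats of the unit nGAAn, the heat shock element, ahead of the stress-inducible members, while many other members are made in all growing cells. Several members are known for roles in the germ line, among them Hspa2 and Hspa4l, which are needed for sperm production in mice.

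Values are RPM, the reads of a gene scaled to the reads assigned to genes in its library. They are not divided by gene length, so levels are compared here between groups and not between genes, and a family's sum weighs its most abundant members. The libraries hold an estimated 2219175 to 5817990 reads assigned to genes, and a gene listed at 0 may still have had 3 reads, or 0.517 to 1.36 RPM by library. Genes were tested where at least 2 of the 12 libraries reached 5 RPM, which kept 10856 genes and 59 of the 83 members. Hspa2 passed only through its 4 E12.5 libraries, so the filter itself favoured a rise; it is in the counts of called members below, and its own change is given with no test. Tests were made with limma on log2(RPM + 1), with Benjamini-Hochberg adjustment over all genes tested, and a gene is called where the adjusted p is under 0.05. Log2 changes of low genes are understated by the added 1. Germ cell markers were present in every library, with a sum of 2629 to 7660 RPM over a list of 10. Blood markers stood apart at E9.5: 9 listed genes summed to 4601 and 4072 RPM there, led by embryonic globins, and to at most 20.02 RPM elsewhere. Fibroblast and stroma markers summed to 478 and 448 RPM at E9.5, 143 to 424 RPM in culture and 271 to 318 RPM at E12.5, mostly from Fn1, hindgut markers to 32.7 and 41.3 RPM at E9.5 and at most 12.47 elsewhere, and gonadal somatic markers to at most 24.3 RPM. The part of these cells in the differences below was not tested. In bulk samples such as these, fewer cells of a kind and less RNA per cell cannot be told apart.

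The chaperone genes together took a nearly constant share of the RNA. Their summed level was 23954 to 27535 RPM, or 2.39% to 2.75% of all gene RPM, with the highest and the lowest sum both in d4c7. In the embryonic groups the sum stayed between 25430 and 26238 RPM. Beneath that constant total the families shifted against each other. HSP90 summed to 8008 and 8012 RPM at E9.5 and to 8826 to 11004 RPM in all other libraries. HSP60 with HSP10 stood at 2865 and 2784 RPM at E9.5 and at 2058 to 2224 RPM at E12.5. The CCT genes lay at 4133 to 4805 RPM in culture and at 4835 to 5244 RPM in the embryo, 2 ranges that did not overlap. HSP70 with HSP110 summed to 5126 to 6011 RPM in culture and to 6058 to 6643 RPM in the embryo. The small heat shock proteins fell the furthest, from 118 to 197 RPM in culture and 116 and 85.9 RPM at E9.5 to 51.8 and 40.5 RPM in females and 18.4 and 16.6 RPM in males. The DNAJA, DNAJB and DNAJC sums overlapped between culture and embryo.

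**Figure D1:**
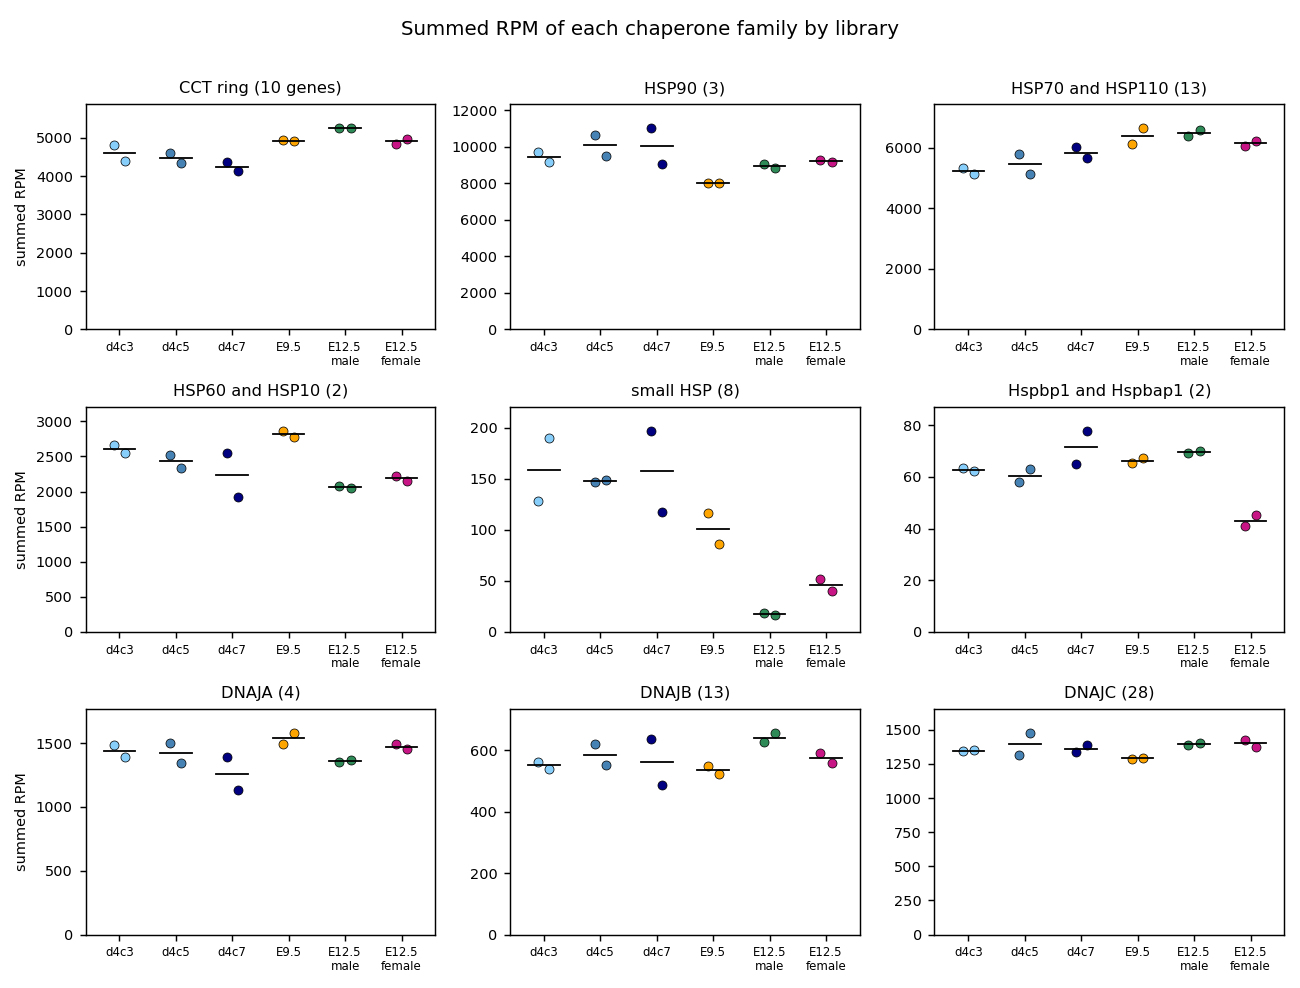
Summed RPM (y axis, from 0) of each of the 9 chaperone families in the 6 groups (x axis). Points are the 2 libraries of a group and bars their mean. HSP90 is lowest at E9.5, the small heat shock proteins fall from culture through E9.5 to E12.5, lowest in males, and the DNAJC sum stays between 1290 and 1474 RPM.

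Single members mostly had smaller ratios between group means than all genes tested, which were not matched to them in level. The highest group mean was under 1.5 times the lowest for 26 of the 59 tested members (44.1%), against 19.1% of all genes tested, and at least 2 times the lowest for 15 members (25.4%), against 51.3% of all genes. The median ratio was 1.56 for the members and 2.03 for all genes. These are descriptions of group means, with no test, and the part of expression level in them was not tested. By the F test over the 6 groups, 29 of the 59 members (49.2%) differed somewhere, against a background of 63.8% of all genes tested, a share not above that of other genes. All 3 HSP90 genes, both HSP60 and HSP10 genes, both tested small heat shock genes and 6 of 8 HSP70 and HSP110 genes were among the 29, but only 5 of 23 DNAJC genes.

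**Figure D2:**
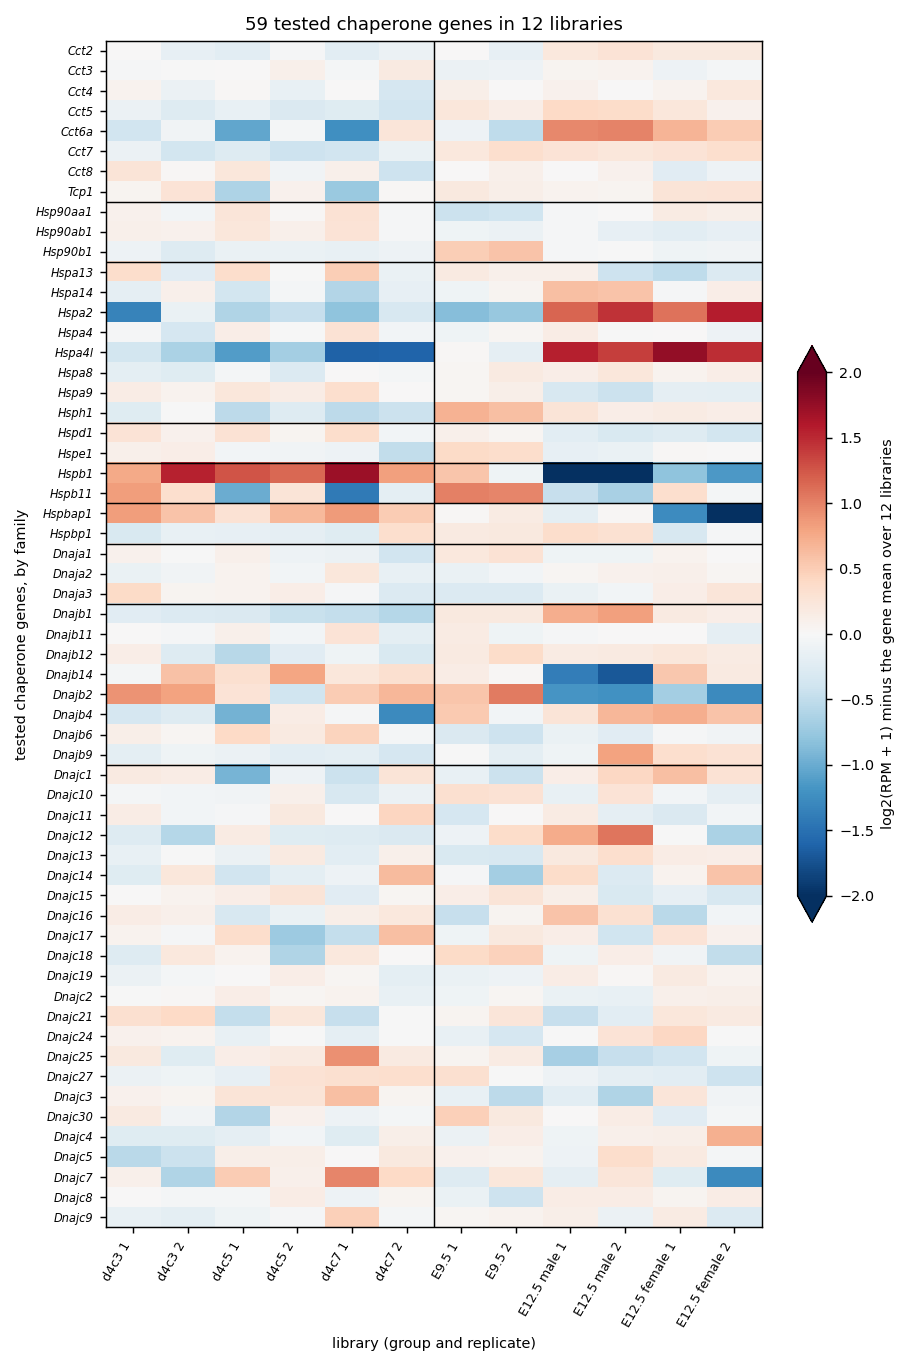
Level of the 59 tested members (rows, by family) in the 12 libraries (columns), as log2(RPM + 1) minus the mean of the gene over the libraries. Colours run from -2 (blue) to 2 (red), and lines part the families and culture from embryo. The strongest colours are those of Hspb1, Hspa4l, Hspa2, Hspbap1, Dnajb14 and Dnajb2, while most CCT and DNAJC rows are pale.

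Across days of expansion in culture few chaperone genes were called, and few genes of any kind. Between d4c5 and d4c3, limma called none of the 59 members, with 5 at an unadjusted p under 0.05, against a background of 0.0829% of all genes. Between d4c7 and d4c3 it called 1 member, Hspa4l, a share of 1.69% against a background of 2.75%, with 1.08% lower. Here 12 members had an unadjusted p under 0.05. With 2 libraries a group, and the widest replicate spread in d4c7, so few calls do not show that the genes were steady. Hspa4l read 9.78 and 7.98 RPM in d4c3, 5.45 and 7.68 in d4c5 and 3.53 and 3.62 in d4c7, so d4c7 lay below d4c3 without overlap (-1.10 ± 0.26 on the log2 scale, adjusted p = 0.039). That call is fragile: it was lost without either d4c3 library, d4c7 replicate 1, either E9.5 library, either E12.5 male library or either E12.5 female library (adjusted p 0.0635 to 0.266), and with an added 5 in place of 1, no filter on low values or only these 4 libraries in the fit. In the list of HSP70 and HSP90 co-chaperones, 1 gene was called across these days. Fkbp6 read 21.5 and 21.5 RPM in d4c3, 59.8 and 41.3 in d4c5, 74.4 and 61.1 in d4c7, 23.2 and 23.9 at E9.5, 123 and 121 in E12.5 males and 156 and 173 in E12.5 females, and this gene, an HSP90 partner known from the piRNA pathway of male germ cells, was called higher in d4c5 (1.17 ± 0.18 on the log2 scale, adjusted p = 0.0185) and in d4c7 (1.61 ± 0.18 on the log2 scale, adjusted p = 0.000429) than in d4c3. It was the only call among 27 tested co-chaperones in these 2 comparisons.

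From E9.5 to E12.5 a larger group of members changed, in both directions. In males 18 of 59 members (30.5%) were called, 9 higher and 9 lower, against a background of 37.7% of all genes, 20% higher and 17.6% lower. In females 15 (25.4%) were called, 6 higher and 9 lower, against a background of 37.5%, 20.4% higher and 17.1% lower. Neither share exceeds its background. Changes of at least 1 on the log2 scale were called for 7 members in males and 5 in females (11.9% and 8.47%, against 19% and 18.4% of all genes). The median change of the tested members was -0.001 in males and -0.014 in females, beside 0.048 and 0.044 over all genes. Besides Hspa2, Hspa4l had the highest rise of the called members in both sexes, and Hspb1, Dnajb2 and, by sex, Dnajb14 or Hspbap1 fell the most. Both sexes were set against the same 2 E9.5 libraries, so the 2 columns of changes are not independent.

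**Figure D3:**
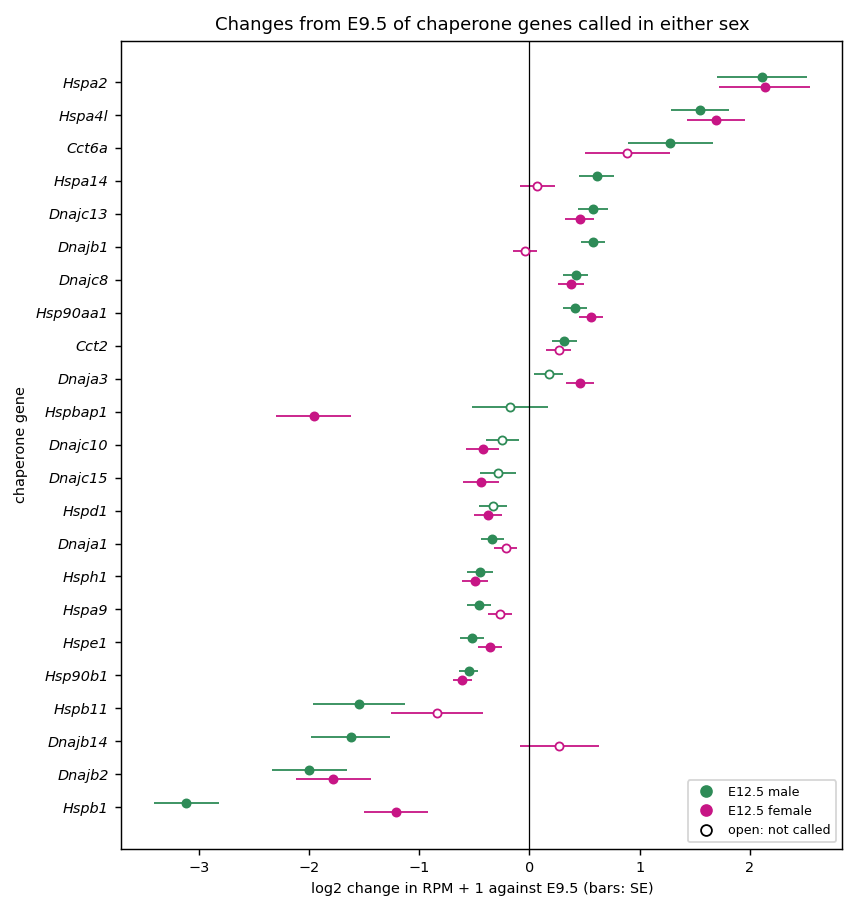
Log2 change in RPM + 1 from E9.5 (x axis) of the 23 members called in at least 1 sex (y axis), in E12.5 males (green) and females (magenta). Bars are standard errors, and open points were not called. Hspa2, which passed the filter only through its E12.5 libraries, and Hspa4l lie furthest to the right, Hspb1 furthest to the left in males, and the sexes part at Hspb1, Dnajb14, Hspbap1, Hspa14 and Dnajb1.

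At E12.5 the sexes differed in 6 members (10.2%), against a background of 11.9% of all genes. Hspb1 and Dnajb14 were higher in females (6.68% of all genes were), and Dnajb1, Hspa14, Dnajc12 and Hspbap1 were higher in males (5.27% of all genes were). Of the 6, 4 reached 1 on the log2 scale (6.78% of members, against 5.99% of all genes). Dnajb14, Dnajc12 and Hspbap1 fell outside the rule for naming genes in this comparison and were picked after their values were seen. Between d4c3 PGCLCs and E9.5 PGCs, 10 members (16.9%) were called, 4 higher and 6 lower in d4c3, against a background of 23.7% (13.4% higher and 10.3% lower), and none of them reached 1 on the log2 scale, against 12.1% of all genes. Between the 3 culture groups and the 3 embryonic groups, 26 members (44.1%) were called, 10 higher and 16 lower in culture, against a background of 54.5% (27.7% higher and 26.8% lower). A size of 1 on the log2 scale was reached by 4 members (6.78%, against 13.1% of all genes). In that comparison 5 of 8 CCT genes, 5 of 8 HSP70 and HSP110 genes and 4 of 8 DNAJB genes were lower in culture, while 1 of 23 DNAJC genes was called.

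The CCT ring was nearly even across groups, with slightly more RNA of some subunits in the embryo. All 8 genes of the standard ring were tested, and Cct6b, a testis form of the zeta subunit, and Cct8l1 stayed at or below 1.36 RPM in every library. Cct7 read 546 and 460.4 RPM in d4c3, 496 and 443 in d4c5, 453 and 537 in d4c7, 685 and 749.9 at E9.5, 714 and 693 in E12.5 males and 715 and 749 in E12.5 females. Every embryonic library lay above every culture library, and culture was lower (-0.56 ± 0.07 on the log2 scale, adjusted p = 9.16e-06). Cct5 read 778 and 704 RPM in d4c3, 757 and 692 in d4c5, 714 and 645 in d4c7, 989 and 922 at E9.5, 1117 and 1089 in E12.5 males and 986 and 889.9 in E12.5 females, again with no overlap (-0.48 ± 0.06 on the log2 scale, adjusted p = 9.86e-06). Cct2 read 178 and 157 RPM in d4c3, 153 and 175 in d4c5, 153 and 164 in d4c7, 178 and 159 at E9.5, 206 and 214 in E12.5 males and 203 and 203 in E12.5 females. Its E12.5 libraries were the 4 highest, and E9.5 overlapped with culture; the change from culture to embryo was called (-0.24 ± 0.07 on the log2 scale, adjusted p = 0.00711). Cct6a read 25.0 and 31.5 RPM in d4c3, 15.6 and 32.3 in d4c5, 13.5 and 39.4 in d4c7, 30.9 and 23.0 at E9.5, 65.6 and 66.7 in E12.5 males and 53.4 and 47.3 in E12.5 females. Only the 4 libraries of E12.5 stood above all others, and culture libraries spread widely within d4c5 and d4c7 (-0.84 ± 0.22 on the log2 scale, adjusted p = 0.00585). Cct4 was called by a narrow margin (-0.17 ± 0.07 on the log2 scale, adjusted p = 0.0495), and that call was lost without d4c3 replicate 2, d4c5 replicate 2, d4c7 replicate 2, either E9.5 library, either E12.5 male library or either E12.5 female library (adjusted p 0.0533 to 0.135), with a pseudocount of 0.1 (0.0536), with no filter on low values (0.108) and with the library medians aligned (0.0654). Cct3, Cct8 and Tcp1 were not called in any of the 7 comparisons.

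The flattest subunit was Cct3, which read 1017 and 1033 RPM in d4c3, 1044 and 1112 in d4c5, 1013 and 1174 in d4c7, 958 and 962 at E9.5, 1079 and 1089.9 in E12.5 males and 966 and 1011 in E12.5 females. Cct8 read 1355 and 1148 RPM in d4c3, 1332 and 1081 in d4c5, 1211 and 846 in d4c7, 1135 and 1217 at E9.5, 1144 and 1207 in E12.5 males and 973 and 1059 in E12.5 females, and Tcp1 read 197 and 230.2 RPM in d4c3, 124 and 203 in d4c5, 113 and 193 in d4c7, 218 and 207 at E9.5, 201 and 197 in E12.5 males and 228 and 229.8 in E12.5 females. In the steps from E9.5 only 2 of the 8 subunits were called, both in males. Cct6a rose by 1.28 ± 0.39 on the log2 scale (adjusted p = 0.0187), a call lost without either E9.5 library or either E12.5 male library (adjusted p 0.0563 to 0.153) and with no filter on low values (0.0779). Cct2 rose by 0.32 ± 0.11 (adjusted p = 0.043), a call lost without either E9.5 library, either E12.5 male library or either E12.5 female library (adjusted p 0.0587 to 0.258), with no filter on low values (0.052) and with the library medians aligned (0.0854). In females the same 2 genes changed by 0.89 ± 0.39 and 0.27 ± 0.11 without being called (adjusted p = 0.0865 and 0.0831). Cct7 was lower in d4c3 than at E9.5 (-0.51 ± 0.11 on the log2 scale, adjusted p = 0.00449), and so was Cct5 (-0.37 ± 0.10 on the log2 scale, adjusted p = 0.0145). The first call was lost without d4c3 replicate 2 or E9.5 replicate 2 (adjusted p 0.0604 to 0.0663), the second without d4c3 replicate 2 or either E9.5 library (adjusted p 0.0507 to 0.135). Cct8 and Tcp1 each have an exon of another gene, Usp16 and Acat3, on the opposite strand over their 3′ end. Whether the counting used strand is not given in the sources used here, so the reads of Cct8 and Tcp1 are uncertain. The 3′ end of Cct6a was not checked, and its annotated span overlaps those of Psph, Snora15 and Gm23245, so its reads are uncertain too.

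**Figure D4:**
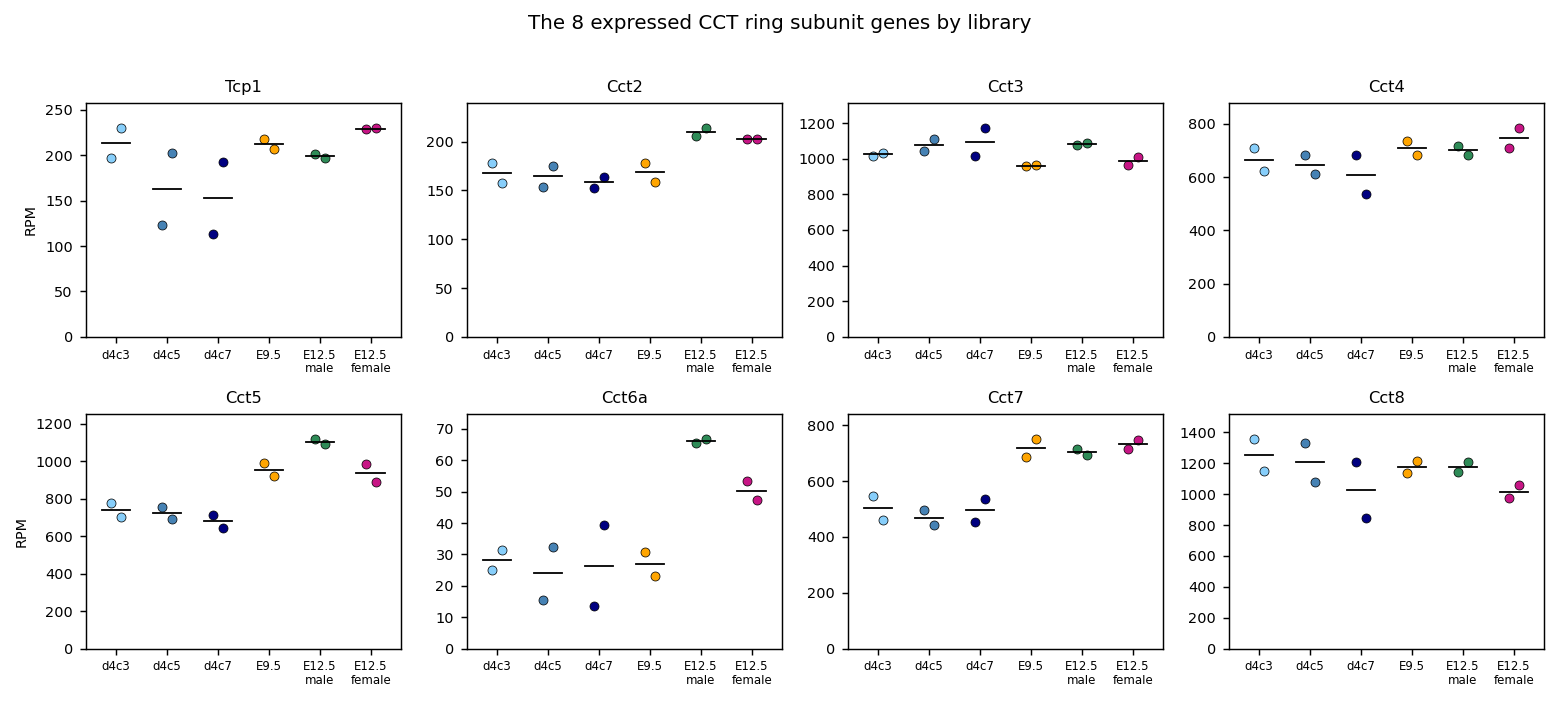
RPM (y axis, from 0) of the 8 tested CCT subunit genes in the 6 groups (x axis). Points are the 2 libraries of a group and bars their mean. Cct5 and Cct7 are higher in all 6 embryonic libraries than in any culture library, Cct6a is highest at E12.5, and Cct3 is level.

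Partners of the ring were counted beside it. Of 9 tested genes for prefoldin subunits, which hand actin and tubulin to the ring, and for other CCT cofactors, 6 were higher and 2 lower in culture than in the embryo, and of the 8 ring genes 0 were higher and 5 lower, against a background of 27.7% higher and 26.8% lower over all genes tested. Vbp1 read 178 and 169 RPM in d4c3, 167 and 174 in d4c5, 183 and 149 in d4c7, 133 and 126 at E9.5, 109 and 110.5 in E12.5 males and 218 and 193 in E12.5 females. This prefoldin subunit gene was higher in females than in males (0.90 ± 0.12 on the log2 scale, adjusted p = 0.000337), without overlap. It was the only one of the 9 called between the sexes, where 11.9% of all genes were called. Of 12 tubulin and actin genes, whose products are the ring's main clients, 4 were lower and 2 higher in males than at E9.5, and 7 were lower and 1 higher in females, where 17.6% and 17.1% of all genes were lower and 20% and 20.4% higher. No ring gene was called lower in those 2 comparisons. Tuba1c, counted higher in both sexes, passed the filter only through its E12.5 libraries, so the filter itself favoured its rise. Tubb2a, counted lower in both sexes, reached 5 RPM only at E9.5 (15.07 and 14.43 RPM) and in d4c7 replicate 1. Without E9.5 it would not have been tested, so the filter itself favoured its fall.

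The 3 HSP90 genes each had a pattern of their own. Hsp90aa1, the stress-responsive cytosolic form, was lowest at E9.5. Hsp90aa1 read 5109 and 4655 RPM in d4c3, 5681 and 4899 in d4c5, 5907 and 4739 in d4c7, 3586 and 3640.3 at E9.5, 4770.0 and 4843 in E12.5 males and 5428 and 5237 in E12.5 females. The 2 E9.5 libraries lay below all 10 others; the gene rose to E12.5 females (0.56 ± 0.11 on the log2 scale, adjusted p = 0.00135) and males (0.41 ± 0.11 on the log2 scale, adjusted p = 0.00959), and was higher in d4c3 than at E9.5 (0.43 ± 0.11 on the log2 scale, adjusted p = 0.011). The male call was lost without either E9.5 library or either E12.5 male library (adjusted p 0.052 to 0.0736), and the d4c3 call without d4c3 replicate 1 or either E9.5 library (adjusted p 0.0777 to 0.0944). Hsp90ab1, the constitutive cytosolic form, changed least. Hsp90ab1 read 4041 and 4029 RPM in d4c3, 4427 and 4043 in d4c5, 4559 and 3726 in d4c7, 3582 and 3479 at E9.5, 3714 and 3388 in E12.5 males and 3284 and 3369 in E12.5 females. All culture libraries were above all embryonic ones by a small step (0.25 ± 0.06 on the log2 scale, adjusted p = 0.00246), and no other comparison called it.

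Hsp90b1 encodes GRP94, the HSP90 of the endoplasmic reticulum (ER), and was high at E9.5 alone. Hsp90b1 read 559 and 503 RPM in d4c3, 545 and 547 in d4c5, 537 and 558 in d4c7, 841 and 893 at E9.5, 586 and 595 in E12.5 males and 565 and 569.9 in E12.5 females. The 10 libraries outside E9.5 spanned 503 to 595 RPM, far below both E9.5 libraries. The gene fell to males (-0.55 ± 0.09 on the log2 scale, adjusted p = 0.000285) and females (-0.61 ± 0.09 on the log2 scale, adjusted p = 0.000148) and was lower in d4c3 (-0.71 ± 0.09 on the log2 scale, adjusted p = 6.67e-05), and all 3 calls held with each library left out in turn. The same 2 libraries carried the blood markers, and that list's part in the Hsp90b1 level was not tested. Its upstream sequence is shown because it holds the CCAAT boxes and the ER stress response element, CCAAT and CCACG with 9 bases between them, that this gene class is known for. In the RefSeq table (GRCm38.p6) that element is present, on either strand, in the promoter windows of 2 of 68 members (2.94%; Hsp90b1 and Dnajc3) and of 0.137% of all 27025 genes; windows run from 250 bases before to 50 after the start, and 15 members have no window in the table. The stretch lies at chr10:86705510-86705694 on the minus strand, 250 to 66 bases before the start, and capitals mark CCAAT on either strand and the element.
Hsp90b1 upstream: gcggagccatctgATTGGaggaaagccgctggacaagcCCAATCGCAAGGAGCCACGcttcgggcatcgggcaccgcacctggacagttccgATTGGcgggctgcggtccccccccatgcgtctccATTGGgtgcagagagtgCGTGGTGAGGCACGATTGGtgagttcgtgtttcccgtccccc

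Other ER folding genes did not fall with Hsp90b1 in males. Of 9 listed ER partners, 7 were lower in culture than in the embryo and none higher, 4 were higher and none lower in males than at E9.5, and 2 were higher and 1, Hspa5, lower in females than at E9.5. Over all genes, 26.8% were lower in culture, 20% higher in males and 20.4% higher in females. Sdf2l1, counted higher in males and lower in culture, passed the filter only through its E12.5 libraries. It read at most 4.41 RPM elsewhere, so the filter itself favoured these calls. Hyou1, the ER member of the HSP110 type, rose to males (1.07 ± 0.22 on the log2 scale, adjusted p = 0.0019) and females (0.73 ± 0.22 on the log2 scale, adjusted p = 0.0194). It read 49.6 and 53.5 RPM at E9.5, 108 and 111 in E12.5 males and 116 and 64.1 in E12.5 females. The female libraries thus lay far apart, and these calls were not checked with libraries left out. Hspa5 read 405 and 368 RPM in d4c3, 347 and 372 in d4c5, 328 and 354 in d4c7, 551 and 541 at E9.5, 582 and 524 in E12.5 males and 413 and 407 in E12.5 females. This main ER HSP70 was lower in females than at E9.5 (-0.41 ± 0.10 on the log2 scale, adjusted p = 0.00441) and than in males (-0.43 ± 0.10 on the log2 scale, adjusted p = 0.0105), and lower in every culture library than in any embryonic one.

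Among the HSP70 and HSP110 genes, 8 of 13 were tested, and the size of change varied widely. Hspa4l, an HSP110-type exchange factor needed for sperm development in mice, rose toward E12.5. At E9.5 it stood at 13.2 and 11.3 RPM, in E12.5 males at 40.0 and 35.5 RPM and in E12.5 females at 46.1 and 38.0 RPM. The order from culture through E9.5 to E12.5 had no overlap between these 3 stages. Both E12.5 sexes were above E9.5 (1.55 ± 0.26 on the log2 scale, adjusted p = 0.000454 in males, 1.69 ± 0.26 on the log2 scale, adjusted p = 0.000247 in females), the sexes were not called apart, and culture was below the embryo (-2.01 ± 0.15 on the log2 scale, adjusted p = 1.81e-07). Hspa2 read 0.782 and 3.11 RPM in d4c3, 1.95 and 2.26 in d4c5, 1.57 and 2.59 in d4c7, 1.47 and 1.65 at E9.5, 9.07 and 11.1 in E12.5 males and 8.49 and 12.3 in E12.5 females. Hspa2, the HSP70 of meiotic male germ cells, thus stayed at or below 3.11 RPM outside E12.5, and the sexes overlapped at E12.5. Its change from E9.5 was 2.11 ± 0.41 in males and 2.14 ± 0.41 in females on the log2 scale, given with no test because it entered the tested genes only through these E12.5 libraries. The Hspa4l calls in both sexes held with each library left out in turn.

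Hsph1 read 179 and 210.3 RPM in d4c3, 146 and 177 in d4c5, 147 and 157 in d4c7, 341 and 321 at E9.5, 252 and 232 in E12.5 males and 237 and 231 in E12.5 females. Hsph1, HSP110 itself, was highest in both E9.5 libraries, intermediate at E12.5 and lowest in culture, with no overlap among the 3 stages. It was lower in d4c3 than at E9.5 (-0.77 ± 0.12 on the log2 scale, adjusted p = 0.000426), a call that held with each library left out, and it fell to males (-0.45 ± 0.12 on the log2 scale, adjusted p = 0.00961) and females (-0.50 ± 0.12 on the log2 scale, adjusted p = 0.00539). The male call was lost without E9.5 replicate 1 or E12.5 male replicate 2 (adjusted p 0.0795 to 0.0821) and the female call without E9.5 replicate 1 (adjusted p 0.0559). Hspa14 read 141 and 172 RPM in d4c3, 124 and 156 in d4c5, 106 and 144 in d4c7, 151 and 167 at E9.5, 245 and 240.2 in E12.5 males and 157 and 177 in E12.5 females. Hspa14, an atypical HSP70 that works at the ribosome with Dnajc2, was above all other libraries in the 2 male ones (0.61 ± 0.16 on the log2 scale, adjusted p = 0.00782 from E9.5). Females were lower than males (-0.54 ± 0.16 on the log2 scale, adjusted p = 0.0395). The rise in males was lost without E9.5 replicate 1 or E12.5 male replicate 1 (adjusted p 0.0508 to 0.0789), and the sex difference without either E9.5 library, either E12.5 male library or either E12.5 female library (adjusted p 0.0684 to 0.222) and with no filter on low values (0.114). Its partner did not follow: Dnajc2 read 154 and 157 RPM in d4c3, 170.3 and 159.9 in d4c5, 163 and 139 in d4c7, 145 and 159 at E9.5, 142 and 140.0 in E12.5 males and 166 and 168 in E12.5 females, with no call in the 7 comparisons.

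Hspa8, the constitutive HSC70, moved little. Hspa8 read 3865 and 3733 RPM in d4c3, 4292 and 3662 in d4c5, 4431 and 4316 in d4c7, 4541 and 5006 at E9.5, 4852 and 5185 in E12.5 males and 4626 and 4819 in E12.5 females. Every embryonic library exceeded every culture library (-0.26 ± 0.06 on the log2 scale, adjusted p = 0.00134), and d4c3 was lower than E9.5 (-0.33 ± 0.10 on the log2 scale, adjusted p = 0.0238), a call lost without either d4c3 library or either E9.5 library (adjusted p 0.0609 to 0.213) and with no filter on low values (0.0647). Its level is uncertain in another way: 67.3% of the 50-base windows in the last 300 bases of its transcript (GENCODE M21) also occur in other annotated transcripts such as Gm15459, so reads may be split among copies. Hspa4, a further HSP110-type gene, was called in no comparison at 336 to 521 RPM, and neither was Hspa13, an ER form of HSP70, at 13.9 to 29.1 RPM.

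The stress-inducible pair Hspa1a and Hspa1b, the classic heat shock genes, stayed near 0 in all libraries. Hspa1a read 0.391 and 0.887 RPM in d4c3, 0 and 0 in d4c5, 0 and 1.78 in d4c7, 4.17 and 3.70 at E9.5, 1.88 and 1.96 in E12.5 males and 0.101 and 1.42 in E12.5 females. Hspa1b read 0 and 0.665 RPM in d4c3, 0.487 and 0.715 in d4c5, 0.0982 and 0.244 in d4c7, 2.05 and 1.14 at E9.5, 1.41 and 0.301 in E12.5 males and 0.404 and 0.985 in E12.5 females. At most 4.17 RPM was reached, in the first E9.5 library, so neither gene passed the filter and neither was tested. The 2 genes are near copies, and some of their values are below that of 1 read, so how reads were split between them is uncertain. The 150 bases before their starts are printed because they are identical at 149 of 150 positions and hold the sequence that heat shock factors are known to use at these genes. They lie at chr17:34972157-34972306 and chr17:34959239-34959388 (GRCm38.p6, minus strand), and capitals mark a pair of heat shock units (GAANNTTC or TTCNNGAA, both strands searched).
Hspa1a upstream: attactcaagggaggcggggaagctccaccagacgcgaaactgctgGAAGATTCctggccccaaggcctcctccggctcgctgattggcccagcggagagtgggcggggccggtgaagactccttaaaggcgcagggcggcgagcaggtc
Hspa1b upstream: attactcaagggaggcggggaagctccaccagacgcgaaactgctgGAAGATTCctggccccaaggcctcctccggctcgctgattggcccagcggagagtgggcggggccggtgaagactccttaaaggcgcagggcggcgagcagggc

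Such a pair occurs in the promoter windows of 20 of the 68 members with one (29.4%) and of 17% of all genes, and the longer form of 3 units, GAANNTTC followed by NNGAA, in 4 members (5.88%) and 0.662% of all genes. Those 4 are Hspd1, Hspe1, Dnajb6 and Hsph1, the last with its match after the start. A match is a description of letters and not of binding.

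Of the heat shock factor genes, Hsf1 and Hsf2 were tested, Hsf5 stayed at or below 4.78 RPM, and Hsf3 and Hsf4 were listed at 0 in all libraries. Hsf1 read 16.0 and 22.2 RPM in d4c3, 12.1 and 25.3 in d4c5, 12.96 and 23.1 in d4c7, 26.1 and 34.9 at E9.5, 44.1 and 39.7 in E12.5 males and 35.8 and 41.7 in E12.5 females. Hsf2 read 19.2 and 22.6 RPM in d4c3, 16.0 and 21.7 in d4c5, 13.7 and 16.7 in d4c7, 34.6 and 47.6 at E9.5, 23.8 and 31.01 in E12.5 males and 34.0 and 35.5 in E12.5 females. Both were lower in culture than in the embryo (-0.99 ± 0.19 on the log2 scale, adjusted p = 0.000551, and -0.86 ± 0.14 on the log2 scale, adjusted p = 0.000134), and neither was called between E9.5 and E12.5. The immediate early genes, a list of 14 that responds to cell handling, summed to 111 to 186 RPM, with culture and embryo overlapping. Its sums of 156 and 184 RPM at E9.5 lay above the 111 to 136 RPM of the 4 E12.5 libraries. Of 11 tested genes, 4 were lower and 2 higher in males than at E9.5, and 4 lower and 1 higher in females, Jun and Ier3 being lower in both. Jun reached 5 RPM only at E9.5 (9.97 and 7.89 RPM) and in d4c7 replicate 1 (5.89 RPM). It would not have been tested without E9.5, so the filter itself favoured its fall. Over all genes, 17.6% were lower and 20% higher in males, and 17.1% and 20.4% in females. The part of this list in the changes from E9.5 was not tested.

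Of the mitochondrial folding genes, Hspe1 was called lower at E12.5 than at E9.5 in both sexes, Hspd1 in females and Hspa9 in males. Hspd1 (HSP60) and Hspe1 (HSP10) form the folding chamber and its lid, and Hspa9 is the HSP70 of mitochondria. Hspe1 read 1505 and 1530.3 RPM in d4c3, 1349.6 and 1338 in d4c5, 1312 and 1000.0 in d4c7, 1832 and 1796 at E9.5, 1249.5 and 1279 in E12.5 males and 1420.3 and 1403 in E12.5 females. E9.5 lay above all other libraries, and the gene fell to males (-0.52 ± 0.11 on the log2 scale, adjusted p = 0.00185) and to females (-0.36 ± 0.11 on the log2 scale, adjusted p = 0.0173). The male call held with each library left out, and the female call was lost without either E9.5 library or either E12.5 female library (adjusted p 0.0752 to 0.103) and with no filter on low values (0.0504). Hspd1 read 1158 and 1019.8 RPM in d4c3, 1171 and 1003 in d4c5, 1231 and 925 in d4c7, 1033 and 988 at E9.5, 830.3 and 779 in E12.5 males and 803 and 749 in E12.5 females. All 4 E12.5 libraries were below all others; the fall was called in females (-0.38 ± 0.13 on the log2 scale, adjusted p = 0.0298) but not in males (-0.33 ± 0.13 on the log2 scale, adjusted p = 0.0549). The female call was lost without either E9.5 library or either E12.5 female library (adjusted p 0.0743 to 0.164) and with no filter on low values (0.0858). Hspa9 read 676 and 643 RPM in d4c3, 717 and 678 in d4c5, 768 and 615 in d4c7, 628 and 666 at E9.5, 489 and 454 in E12.5 males and 540.2 and 535 in E12.5 females. Here too the 4 E12.5 libraries were the lowest, with a call in males (-0.46 ± 0.11 on the log2 scale, adjusted p = 0.00417) that was lost without E9.5 replicate 2 (adjusted p 0.05005) and none in females (-0.27 ± 0.11 on the log2 scale, adjusted p = 0.0634). Culture was above the embryo for Hspa9 (0.32 ± 0.06 on the log2 scale, adjusted p = 0.000644) and Hspd1 (0.33 ± 0.07 on the log2 scale, adjusted p = 0.00165), though single libraries overlapped.

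Hspd1 and Hspe1 are neighbours that are read in opposite directions from a shared stretch on chromosome 1. That stretch is shown because it holds the heat shock units of both, at chr1:55088055-55088084 (GRCm38.p6, plus strand, the direction of Hspe1), 93 to 64 bases before the Hspe1 start. Capitals mark the overlapping pairs of units.
Hspe1 and Hspd1 shared: tccgTTCTAGAACCTTCCGGAAggccccgc

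Although they share this stretch, their levels differed in group order: Hspe1 was highest at E9.5 and lowest in d4c7, and Hspd1 highest in d4c3 and lowest in E12.5 females. Of the last 300 bases of Hspe1, 43.8% of the 50-base windows also occur in other transcripts, among them its pseudogenes, so its reads may be shared. Other mitochondrial genes were counted beside them. Of 9 listed partners, Clpb and Clpp were higher in both sexes at E12.5 than at E9.5, and none was lower. Among all genes tested, 20% (males) and 20.4% (females) were called higher, and 17.6% and 17.1% were called lower. Dnaja3 read 208 and 165 RPM in d4c3, 166 and 173 in d4c5, 155 and 130.3 in d4c7, 131 and 131 at E9.5, 145 and 152 in E12.5 males and 174 and 188 in E12.5 females, and this J-domain partner of mitochondrial HSP70 was higher in females (0.46 ± 0.13 on the log2 scale, adjusted p = 0.0131) and in d4c3 (0.49 ± 0.13 on the log2 scale, adjusted p = 0.0135) than at E9.5. The first of these calls was lost without either E9.5 library or E12.5 female replicate 2 (adjusted p 0.0705 to 0.0936), the second without d4c3 replicate 1 or either E9.5 library (adjusted p 0.0802 to 0.157). Dnajc15, a J protein of the inner membrane, read 77.2 and 84.0 RPM at E9.5 and 62.8 and 55.8 RPM in females (-0.44 ± 0.16 on the log2 scale, adjusted p = 0.0481), a call lost without either d4c3 library, either d4c5 library, either E9.5 library or either E12.5 female library (adjusted p 0.0533 to 0.228) and with a pseudocount of 0.1 (0.0505) or no filter on low values (0.0765). Dnajc19, which serves protein import, kept to 121 to 157 RPM with no call.

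Hspb1 had the widest range of the 59 tested members, with a highest group mean 21.06 times the lowest. It encodes HSP27 (HSP25 in mice), an ATP-independent holdase that binds actin filaments, and lies at chr5:135887919-135889563 (GRCm38.p6). Hspb1 read 97.8 and 167 RPM in d4c3, 139 and 128 in d4c5, 189 and 101 in d4c7, 84.3 and 54.1 at E9.5, 6.88 and 6.92 in E12.5 males and 32.4 and 25.1 in E12.5 females. All culture libraries were above all embryonic ones, E9.5 was above E12.5, and females were above males, with no overlap at any of these steps. It fell from E9.5 to males (-3.12 ± 0.29 on the log2 scale, adjusted p = 3.76e-06) and to females (-1.21 ± 0.29 on the log2 scale, adjusted p = 0.00539), so females stayed above males (1.90 ± 0.29 on the log2 scale, adjusted p = 0.000964). Culture was above the embryo (2.41 ± 0.17 on the log2 scale, adjusted p = 8.89e-08), and d4c3 was above E9.5 (0.91 ± 0.29 on the log2 scale, adjusted p = 0.0368). The male, sex and culture calls held with each library left out. The female call was lost without E9.5 replicate 1 or E12.5 female replicate 2 (adjusted p 0.0593 to 0.0944), and the d4c3 call without d4c3 replicate 2, E9.5 replicate 2 or either E12.5 male library (adjusted p 0.054 to 0.324) and with no filter on low values (0.117). Within d4c3 and d4c7 the 2 libraries were far apart, at 97.8 and 167 and 189 and 101 RPM. In d4c7 the library with more Hspb1 had the lower fibroblast and stroma sum (143 against 424 RPM), and so it was in d4c5 (263 against 403 RPM). These sums were mostly Fn1 (113 against 417 RPM in d4c7 and 171 against 397 RPM in d4c5). Col3a1, Col1a1 and Dcn of that list went the other way, higher in both groups where Hspb1 was higher. Col3a1 read 9.42 against 1.55 RPM in d4c7 and 39.7 against 0.904 RPM in d4c5. The part of such cells in the Hspb1 spread was not tested. In d4c3 the library with more Hspb1 had the higher sum (371 against 318 RPM), and at E9.5 too the library with more Hspb1 had the higher sum (478 against 448 RPM). Of its last 300 bases, 19.1% of 50-base windows also occur in Hsp25-ps1, so some reads are uncertain.

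The 150 bases before its start, chr5:135887769-135887918 on the plus strand, are shown because they hold 2 pairs of heat shock units, marked in capitals. They contain no CCAAT on either strand.
Hspb1 upstream: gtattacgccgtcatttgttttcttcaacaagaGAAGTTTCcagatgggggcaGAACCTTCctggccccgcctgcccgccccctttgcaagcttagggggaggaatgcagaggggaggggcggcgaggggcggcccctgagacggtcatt

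Of the other 7 small heat shock genes only Hspb11 was tested, and the rest stayed at or below 3.91 RPM. Hspb11 is better known as Ift25, a part of the intraflagellar transport complex. Hspb11 read 26.2 and 18.2 RPM in d4c3, 6.62 and 17.2 in d4c5, 4.71 and 12.2 in d4c7, 29.4 and 29.0 at E9.5, 10.0 and 8.73 in E12.5 males and 18.2 and 13.8 in E12.5 females. It was lower in males than at E9.5 (-1.55 ± 0.42 on the log2 scale, adjusted p = 0.0102), a call lost without either E9.5 library or E12.5 male replicate 2 (adjusted p 0.0666 to 0.0687). Culture libraries ranged from 4.71 to 26.2 RPM, which overlapped with both E12.5 groups and lay below both E9.5 libraries. Hspbap1, whose product binds HSP27, had a pattern of its own at chr16:35769726-35828462. Hspbap1 read 27.8 and 22.8 RPM in d4c3, 18.7 and 24.2 in d4c5, 28.1 and 22.0 in d4c7, 15.4 and 17.0 at E9.5, 13.1 and 15.4 in E12.5 males and 5.76 and 1.89 in E12.5 females. Culture was above the embryo in every library (1.24 ± 0.20 on the log2 scale, adjusted p = 0.000136), and females fell below all others, both against E9.5 (-1.96 ± 0.34 on the log2 scale, adjusted p = 0.000596) and against males (-1.78 ± 0.34 on the log2 scale, adjusted p = 0.00412). The sex call was lost with only the 4 E12.5 libraries in the fit (adjusted p = 0.0529). In females Hspb1 was above and Hspbap1 below its male level, and in culture both were above their embryonic levels. Hspbp1, an exchange factor for HSP70, was called in no comparison at 35.2 to 56.3 RPM.

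**Figure D5:**
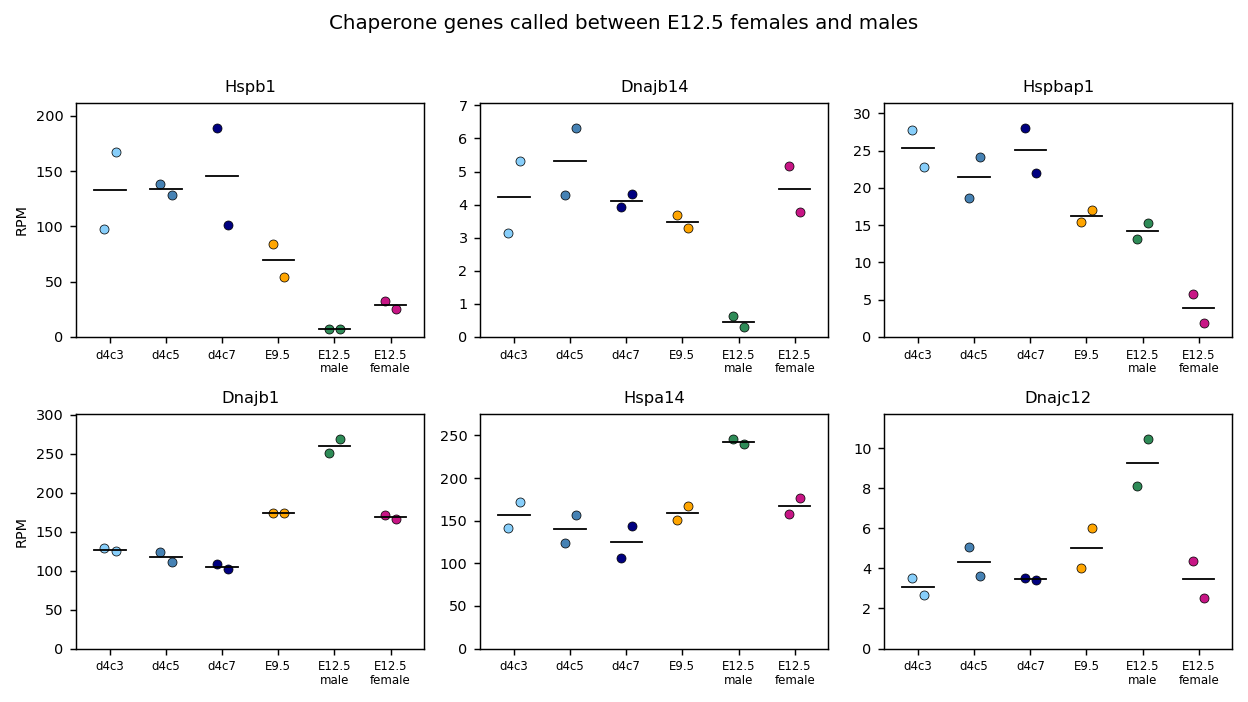
RPM (y axis, from 0) of the 6 members called between E12.5 females and males, in the 6 groups (x axis). Points are the 2 libraries of a group and bars their mean. Hspb1 and Dnajb14 are lowest in males, Hspbap1 is lowest in females, and Dnajb1, Hspa14 and Dnajc12 are highest in males.

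Among the DNAJA and DNAJB genes, 11 of 17 were tested. Dnajb1, the HSP40 that delivers clients to HSP70, separated culture, females and males. Dnajb1 read 129 and 125 RPM in d4c3, 124 and 111 in d4c5, 108 and 101 in d4c7, 174 and 174 at E9.5, 250.4 and 268 in E12.5 males and 171 and 166 in E12.5 females. The order culture, then E9.5 with E12.5 females, then E12.5 males had no overlap between its steps. Males were above E9.5 (0.58 ± 0.11 on the log2 scale, adjusted p = 0.000913) and females below males (-0.62 ± 0.11 on the log2 scale, adjusted p = 0.00219), while females did not pass the test against E9.5 (-0.04 ± 0.11 on the log2 scale, adjusted p = 0.79). Culture was below the embryo (-0.76 ± 0.06 on the log2 scale, adjusted p = 3.90e-07); these 3 calls held with each library left out. The lower level in d4c3 than at E9.5 (-0.45 ± 0.11 on the log2 scale, adjusted p = 0.00781) was lost without either E9.5 library (adjusted p 0.0527 to 0.0536).

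Dnaja1 read 973 and 909 RPM in d4c3, 982 and 846 in d4c5, 837 and 697 in d4c7, 1057 and 1119 at E9.5, 861 and 859 in E12.5 males and 955 and 919 in E12.5 females. Dnaja1, another cytosolic partner of HSP70, was called lower in males than at E9.5 alone (-0.34 ± 0.11 on the log2 scale, adjusted p = 0.0211), which was lost without either E9.5 library or either E12.5 male library (adjusted p 0.0662 to 0.142), and an exon of Smu1 lies over its 3′ end on the opposite strand. Dnaja2 stayed at 303 to 393 RPM with no call. Dnajb6 read 297 and 281 RPM in d4c3, 359.8 and 309.9 in d4c5, 374 and 266 in d4c7, 224 and 206 at E9.5, 251 and 234 in E12.5 males and 269.7 and 259 in E12.5 females. Dnajb6, which keeps proteins from aggregating, was higher in culture than in the embryo (0.38 ± 0.08 on the log2 scale, adjusted p = 0.00122) and higher in d4c3 than at E9.5 (0.43 ± 0.14 on the log2 scale, adjusted p = 0.0384), the latter lost without either d4c3 library, either E9.5 library, either E12.5 male library or either E12.5 female library (adjusted p 0.0563 to 0.22), with no filter on low values (0.0913) and with the library medians aligned (0.0882). It is 1 of the 4 members whose promoter windows hold a heat shock element of 3 units. The 30 bases around that element, chr5:29735844-29735873 (GRCm38.p6, plus strand), are printed with the units in capitals.
Dnajb6 element: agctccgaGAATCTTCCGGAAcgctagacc

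A pair of low DNAJB genes changed by sex or stage, and were picked after their values were seen. Dnajb14 read 3.13 and 5.32 RPM in d4c3, 4.29 and 6.32 in d4c5, 3.93 and 4.31 in d4c7, 3.68 and 3.30 at E9.5, 0.625 and 0.301 in E12.5 males and 5.15 and 3.77 in E12.5 females. Dnajb14, an ER membrane J protein, was near 0 in males alone, below E9.5 (-1.63 ± 0.36 on the log2 scale, adjusted p = 0.00284) and below females (females minus males 1.90 ± 0.36 on the log2 scale, adjusted p = 0.00369). The male values of 0.625 and 0.301 RPM are below the 3-read floor of those libraries (0.938 and 0.903 RPM). Dnajb2 read 13.7 and 12.9 RPM in d4c3, 8.57 and 4.97 in d4c5, 10.2 and 11.5 in d4c7, 10.7 and 15.3 at E9.5, 2.50 and 2.41 in E12.5 males and 3.94 and 2.26 in E12.5 females. Dnajb2, a J protein that binds ubiquitin, was lower at E12.5 in males (-1.998 ± 0.34 on the log2 scale, adjusted p = 0.000453) and females (-1.78 ± 0.34 on the log2 scale, adjusted p = 0.00109) than at E9.5. The Dnajb14 and Dnajb2 calls against E9.5 and between the sexes held with each library left out. Of the ER forms, Dnajb11 was called in no comparison at 68.9 to 95.4 RPM, while Dnajb12 and Dnajb9 were called lower in culture than in the embryo (-0.43 ± 0.15 on the log2 scale, adjusted p = 0.0306, and -0.38 ± 0.15 on the log2 scale, adjusted p = 0.0457). The Dnajb12 call was lost without d4c3 replicate 2, d4c5 replicate 1, d4c7 replicate 2, E9.5 replicate 2, either E12.5 male library or either E12.5 female library (adjusted p 0.0513 to 0.0808). The Dnajb9 call was lost without either d4c3 library, either d4c5 library, d4c7 replicate 2, either E9.5 library, E12.5 male replicate 2 or either E12.5 female library (adjusted p 0.0645 to 0.156) and with no filter on low values (0.0768). Dnajb4 was lower in culture too (-0.89 ± 0.25 on the log2 scale, adjusted p = 0.00785), at 2.59 to 8.58 RPM against 7.31 to 13.3 RPM.

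DNAJC is the biggest family here, 28 genes of varied function that share the J domain alone, and few of them changed. Of 23 tested genes, none was called between d4c3 and the other culture groups or between d4c3 and E9.5, 2 in males and 4 in females against E9.5, 1 between the sexes and 1 between culture and embryo, where 37.7%, 37.5%, 11.9% and 54.5% of all genes were called. Dnajc13 read 146 and 161 RPM in d4c3, 148 and 182 in d4c5, 139.8 and 173 in d4c7, 131 and 129 at E9.5, 185 and 204 in E12.5 males and 179.8 and 178 in E12.5 females. Dnajc13, which acts in endosomal sorting, rose from E9.5 to males (0.58 ± 0.13 on the log2 scale, adjusted p = 0.00378) and females (0.46 ± 0.13 on the log2 scale, adjusted p = 0.0148); the first call held with each library left out and the second was lost without either E9.5 library or either E12.5 female library (adjusted p 0.065 to 0.0819). Dnajc8 read 262 and 252 RPM in d4c3, 252 and 289 in d4c5, 242 and 268 in d4c7, 236 and 196 at E9.5, 287 and 289 in E12.5 males and 271 and 288 in E12.5 females. Dnajc8, tied to splicing, was lowest at E9.5 and higher in males (0.42 ± 0.12 on the log2 scale, adjusted p = 0.0109) and females (0.38 ± 0.12 on the log2 scale, adjusted p = 0.02). These calls were lost without E9.5 replicate 2 or either E12.5 male library (adjusted p 0.0551 to 0.143) in males and without E9.5 replicate 2 or either E12.5 female library (adjusted p 0.0551 to 0.214) in females. Dnajc10, an ER reductase, read 119.9 and 118 RPM at E9.5 and 92.5 and 84.2 RPM in females (-0.42 ± 0.15 on the log2 scale, adjusted p = 0.0371), a call lost without either E9.5 library or either E12.5 female library (adjusted p 0.0751 to 0.186) and with no filter on low values (0.0631).

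Dnajc12 read 3.52 and 2.66 RPM in d4c3, 5.07 and 3.61 in d4c5, 3.53 and 3.45 in d4c7, 4.04 and 6.01 at E9.5, 8.13 and 10.4 in E12.5 males and 4.40 and 2.51 in E12.5 females. Dnajc12, a co-chaperone of aromatic amino acid hydroxylases, was higher in males than in females (females minus males -1.23 ± 0.35 on the log2 scale, adjusted p = 0.0353), a call lost without either E12.5 male library or either E12.5 female library (adjusted p 0.0536 to 0.239), with a pseudocount of 0.1 (0.0582), with no filter on low values (0.0867) and with only the 4 E12.5 libraries in the fit (0.0686). Dnajc3, an ER J protein that restrains the kinase PERK, was higher in culture (0.44 ± 0.13 on the log2 scale, adjusted p = 0.00938), at 42.6 to 62.8 RPM against 26.8 to 49.1 RPM in the embryo. Dnajc9, known as a histone chaperone, stayed at 49.8 to 84.6 RPM with no call, and Dnajc21, which serves ribosome assembly, spread over 71.3 to 130.4 RPM and was called in none of the 7 comparisons, but by the F test over the 6 groups (adjusted p = 0.039). Among the 24 members not tested in all families no library exceeded 5.43 RPM, and Hspb9, Dnajb7 and Dnajc5b were listed at 0 throughout.

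The co-chaperones that serve HSP70 and HSP90 also moved in both directions. All 27 on the list were tested, with 6 called higher and 7 lower in males than at E9.5, 5 higher and 6 lower in females, and 11 in each direction between culture and embryo. Over all genes the shares were 20% higher and 17.6% lower in males, 20.4% and 17.1% in females, and 27.7% and 26.8% between culture and embryo. Ptges3, counted higher in females and lower in culture, passed the filter only through its E12.5 libraries. Bag2, counted lower in culture, passed it only through E9.5. The filter itself favoured these calls. Bag3 read 46.9 and 53.2 RPM in d4c3, 29.6 and 39.3 in d4c5, 32.2 and 45.8 in d4c7, 41.2 and 37.5 at E9.5, 17.2 and 15.7 in E12.5 males and 25.5 and 29.2 in E12.5 females. Bag3, which joins HSP70 to the small heat shock proteins, fell to males (-1.21 ± 0.21 on the log2 scale, adjusted p = 0.000583). It was higher in females than in males (0.70 ± 0.21 on the log2 scale, adjusted p = 0.047), the direction also seen for Hspb1. That sex call was close to the threshold and was not checked with libraries left out. Fkbp6, given above, rose from E9.5 to males (2.33 ± 0.18 on the log2 scale, adjusted p = 5.17e-07) and females (2.75 ± 0.18 on the log2 scale, adjusted p = 1.33e-07).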

How the data were processed

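The members and all gene lists were chosen with earlier results of these data known. The deposited table gives RPM, which per the labels' protocols and the submitters' processing notes came from SOLiD reads of 3′ ends of amplified cDNA. Cutadapt 1.3, TopHat 1.4.1 and Cufflinks 2.2.0 are listed in those notes beside build mm10, with no role given. The table has 26218 gene rows and 92 ERCC spike-in rows, and the latter stayed out of all tests. The spike-ins summed to at most 72.7 RPM in culture, with a sum of 0 in d4c7 replicate 2. In the embryo they summed to 1372 and 629 RPM at E9.5 and to 12110 to 16490 RPM at E12.5. E9.5 and E12.5 libraries thus differ in spike-in share as well, and the part of this in the changes from E9.5 was not tested. Low values were multiples of a step within 0.1 read for 81.7% to 87.3% of values up to 20 reads, so whole reads were not recovered and no test on read numbers was made. The floor of 3 reads covers counting error alone: cDNA was amplified with no molecular identifiers, so a read is not a molecule.

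RPM was analysed as log2(RPM + 1) in genes with at least 5 RPM in at least 2 of 12 libraries. This kept 10856 genes and left out 15362. A single limma 3.58.1 fit (R 4.3.3; group means, contrasts, moderated variance with a trend) used all 12 libraries, with 6 residual and 8.02 prior degrees of freedom. The fit code was run on simulated data with normal noise and the same spread in all groups. Replicate spread differed between the groups here, so that run does not show the rate of false calls in these data. Errors of log2 changes are standard errors. The root mean square difference of replicates (log2) was 0.329 at E9.5, the lowest, and 0.564 in d4c7, the highest, and no 2 libraries were identical. Named genes were 22 fixed members and, per comparison, up to 6 called members in each direction that did not overlap and reached a mean of 20 RPM. Some members outside that rule are marked where they are discussed, and others are summarised by range. Dnajc2, Dnajb12, Dnajb9, Dnajb4, Dnajc3 and Dnajc21 also fall outside it and were not named by a fixed rule. Alternatives were other pseudocounts, filters, scaling and fits, a replicate block, and each library left out. They were examined for members only. Calls of genes on the other lists, such as Vbp1, Hyou1, Hspa5, Bag3 and Fkbp6, were not checked this way. Sequences and promoters came from RefSeq (GRCm38.p6, the same build as mm10), where 68 of 83 members matched, and transcript ends from GENCODE M21.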

Additional observations from a re-analysis of the deposited data

Results flagged for a closer look

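For 6 members the change from E9.5 to E12.5 differed between females and males by the limma contrast of the sexes, which is the difference of the 2 changes because both use the same E9.5 libraries. Female minus male, the difference was 1.90 for Hspb1 and 1.90 for Dnajb14. It was -1.78 for Hspbap1, -1.23 for Dnajc12, -0.62 for Dnajb1 and -0.54 for Hspa14, all on the log2 scale. The calls of Hspb1, Dnajb14, Dnajb1 and Hspbap1 held with each library left out in turn. Those of Dnajc12 and Hspa14 were lost without any 1 of the 4 E12.5 libraries (adjusted p 0.0536 to 0.239 for Dnajc12 and 0.103 to 0.222 for Hspa14), and that of Hspa14 also without either E9.5 library (0.0684 and 0.0687). With no filter on low values both were lost too (0.0867 and 0.114). The 6 calls of 59 members stand beside 11.9% of all genes.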

How the results depend on the processing

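No direction of a called member turned under any alternative. With a library left out, counts of called members moved from 18 to between 11 and 20 for males against E9.5, from 15 to 7 to 19 for females against E9.5, from 10 to 2 to 12 for d4c3 against E9.5, from 6 to 4 to 8 between the sexes, from 26 to 21 to 29 between culture and embryo, and from 29 to 18 to 34 for the F test. Without E9.5 replicate 2 the last count was 18, and without E9.5 replicate 1 the female count was 7. For d4c7 against d4c3 the count of 1 ranged from 0 to 6 with a library left out, and was 0 with a pseudocount of 5, 0 with no filter on low values and 0 with only the groups compared. Females against E9.5 gave 25 calls with only the groups compared, including all 15. The F test was not run on fewer groups. For d4c5 against d4c3 the count was 0 throughout. Aligning library medians shifted libraries by at most 0.066 on the log2 scale.

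With replicate number as a block, d4c7 against d4c3 gave 2 calls, and the other counts were 0 for d4c5 against d4c3, 20 for males, 16 for females, 7 between the sexes, 10 for d4c3 against E9.5, 29 for culture against embryo and 30 for the F test. The female call of Dnajc15 was lost with the block (adjusted p = 0.0501). The labels do not pair the libraries: deviations of same-numbered libraries correlated at 0.116 to 0.455 among culture groups and within 0.043 of 0 elsewhere.

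Depth limits the members under about 5 RPM, of which 24 were not tested, and 2 libraries a group limit every call.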

Other observations

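Within the culture groups replicate 1 was below replicate 2 in both d4c5 and d4c7 for Cct6a (15.6 against 32.3 RPM, and 13.5 against 39.4 RPM), for Tcp1 (124 against 203 RPM, and 113 against 193 RPM) and for Hspb11 (6.62 against 17.2 RPM, and 4.71 against 12.2 RPM). In d4c3 the values were 25.03 and 31.5 RPM for Cct6a, 197 and 230.2 RPM for Tcp1, and 26.2 and 18.2 RPM for Hspb11. Fn1, the main gene of the fibroblast and stroma list, showed the same order, at 171 against 397 RPM in d4c5 and 113 against 417 RPM in d4c7. Col3a1, Col1a1 and Dcn of the same list showed the opposite order in both groups. Col3a1, for one, stood at 39.7 against 0.904 RPM in d4c5 and 9.42 against 1.55 RPM in d4c7. These genes were picked after their values were seen, and no test was made.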
